A study of Mus musculus with 17 samples.

Results

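The collagen genes outside type IV are the 37 genes of 28670 in the deposited tables whose symbol has the collagen form, with all chains of type IV left out. They fall into 25 collagen types. RNA-seq of 17 mouse samples gave their levels as FPKM, a level per transcript length and library size, so values can be compared between genes. The study asked whether somatic cells without Nanog, a homeobox factor of the pluripotency network, can be reprogrammed with the usual factors.

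The 7 groups, with the number of samples, were Nanog-null iPSC clone G2 (2), Nanog-null iPSC clone G5 (2), Nanog-null ESC (2), WT piPSC (2), WT iPSC (3), WT ESC (4) and WT MEF (2). iPSC are induced pluripotent stem cells, ESC embryonic stem cells, piPSC partially reprogrammed cells that stopped short of pluripotency, and MEF mouse embryonic fibroblasts. The Nanog-null cells were Nanog -/- on a 129/B6 (v6.5) background at passage 6. Clones G2 and G5 were each picked from Nanog-null MEF that received retroviral Oct4, Sox2, Klf4 and in some cases c-Myc. Those MEF were sorted by GFP from embryos injected with Nanog-null ESC. The WT piPSC samples were 1 clone, B1, of 129/B6 (v6.5) at passage 6. WT iPSC 1 (passage 6) and WT ESC 1 and 2 (passage 10 to 15) were also 129/B6 (v6.5), while WT iPSC 2 and 3, WT ESC 3 and 4 (all passage 10 to 15) and WT MEF (passage 2) were c57/b6. Per the labels' protocols, picked colonies and parental Nanog-null ESC were kept on feeder cells in 2i and LIF, and MEF in 10% serum. The kind of feeder is not given there.

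Sample codes begin with AC for every 129/B6 sample and with JI for every c57/b6 sample. The prefix is called a batch here, and it cannot be told apart from strain. WT ESC and WT iPSC were in both batches, Nanog-null cells and piPSC in AC alone, and MEF in JI alone. The depth of each sample ranged from 7795960 to 43501951 assigned fragments. Nanog itself had 27.2 to 43.0 FPKM in the 4 clone samples and 45.8 and 49.5 FPKM in Nanog-null ESC, against 270.1 to 762 FPKM in WT iPSC and 295 to 574 FPKM in WT ESC. A gene-wide value does not show which exons the reads came from, so it is no test of the deletion.

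Collagens are secreted proteins built of chains wound into a triple helix. Fibril-forming types give connective tissue its tensile strength, and other types bind to fibril surfaces, form beaded filaments or networks, or cross the cell membrane. Fibroblasts are a main source of types I, III, V and VI, while pluripotent cells of the early embryo make little fibrillar collagen. Chains are hydroxylated and folded in the endoplasmic reticulum with the chaperone Hsp47 (gene Serpinh1), trimmed outside the cell and cross-linked by lysyl oxidases.

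The 120 bases before the transcription start are shown for 6 members with different patterns over the groups. Col1a2, Col3a1 and Col5a1 were highest in MEF, Col6a4 and Col6a6 were highest in piPSC, and Col9a2 was highest in the WT iPSC and WT ESC samples coded AC. The sequences are from RefSeq on GRCm38.p6, 5′ to 3′ on the gene's strand. Capitals mark the letters CCAAT, or else TATAAA, or else GGGCGG, searched on both strands, and no matches overlap in these windows.
Col1a2, chr6:4505498-4505617, plus strand: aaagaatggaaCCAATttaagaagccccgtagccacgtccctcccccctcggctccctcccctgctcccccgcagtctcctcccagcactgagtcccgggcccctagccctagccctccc
Col3a1, chr1:45311418-45311537, plus strand: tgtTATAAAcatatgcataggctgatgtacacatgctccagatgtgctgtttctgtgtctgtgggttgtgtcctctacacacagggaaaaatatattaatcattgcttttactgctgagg
Col5a1, chr2:27886305-27886424, plus strand: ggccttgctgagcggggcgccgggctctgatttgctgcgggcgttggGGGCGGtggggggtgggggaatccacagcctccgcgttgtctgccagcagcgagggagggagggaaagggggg
Col6a4, chr9:106096692-106096811, minus strand: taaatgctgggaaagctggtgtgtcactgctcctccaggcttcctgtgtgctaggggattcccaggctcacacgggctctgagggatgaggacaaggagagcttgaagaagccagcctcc
Col6a6, chr9:105828086-105828205, minus strand: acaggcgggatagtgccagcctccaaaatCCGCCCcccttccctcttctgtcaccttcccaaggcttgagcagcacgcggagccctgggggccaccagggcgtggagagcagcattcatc
Col9a2, chr4:121039446-121039565, plus strand: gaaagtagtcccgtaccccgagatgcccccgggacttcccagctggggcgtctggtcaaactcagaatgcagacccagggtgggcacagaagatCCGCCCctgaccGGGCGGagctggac
The Col1a2 window held CCAAT and the Col3a1 window TATAAA. The letters GGGCGG or their reverse complement stood in the Col5a1, Col6a6 and Col9a2 windows, with 2 copies in Col9a2, and no searched letters stood in the Col6a4 window. Among 32851 windows of this length in the RefSeq table, 21.3% held CCAAT, 6.34% TATAAA and 26.5% GGGCGG. A match is a description of the letters and no evidence of binding. Of the 37 members, 30 were in the table.

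WT MEF had the highest group mean for 28 of the 37 members, a count given without a share of all genes. Among the 28, Col10a1, Col19a1, Col23a1 and Col28a1 reached at most 1.47 FPKM in any sample. Collagen genes outside type IV took 0.883% ± 0.0215 of assigned fragments in G2, 0.357% ± 0.00249 in G5, 0.605% ± 0.00327 in Nanog-null ESC and 0.0584% ± 0.00438 in piPSC, against 2.51% ± 0.0400 in MEF (SD, n = 2 each). In batch AC the share was 0.202% in WT iPSC 1 (Wilson 95% interval 0.200% to 0.204%) and 0.131% and 0.120% in WT ESC. In batch JI it was 0.0294% and 0.0392% in WT iPSC and 0.0275% and 0.0371% in WT ESC, with Wilson 95% intervals within 0.0266% to 0.0399% over these 4 samples. Intervals cover counting error only. In RNA from whole cultures, fewer cells of a type and less RNA per cell cannot be told apart.

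**Figure D1:**
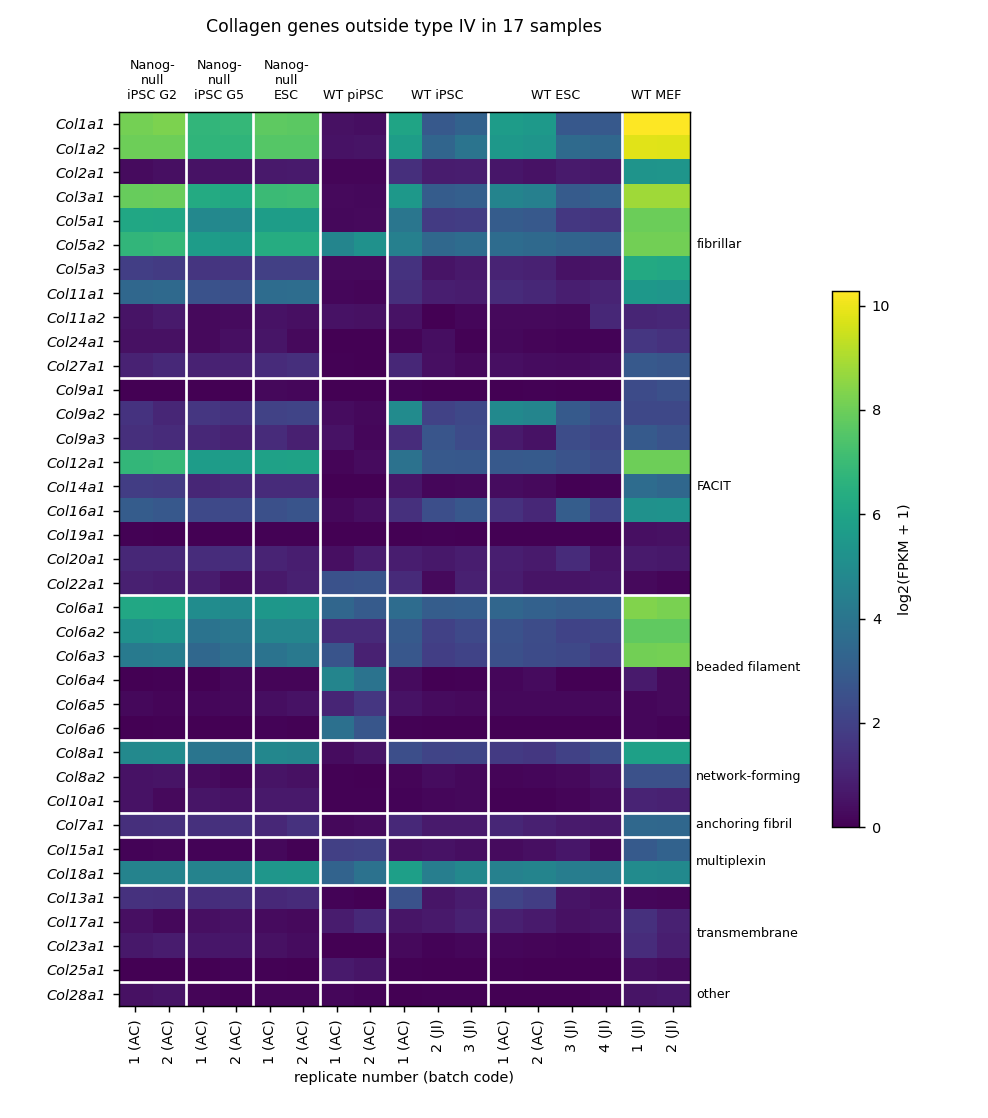
Colour shows log2(FPKM + 1) of each collagen gene (rows, grouped by structural class) in each of the 17 samples (columns, grouped by cell line, with replicate number and batch code). The MEF columns are brightest for 28 members, the Nanog-null columns lie between MEF and WT pluripotent cells for Col1a1, Col3a1, Col5a1, Col6a1, Col8a1 and Col12a1, and Col6a4 and Col6a6 stand out in piPSC.

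Most members were higher in MEF than in WT ESC. The test took genes that reached 1 FPKM in 2 or more samples. Of the 32 members that did, 26 were called, all higher in MEF, with a limma test on log2(FPKM + 1) at an adjusted p under 0.05. Over all 15298 genes tested, 80.1% were called, 38.8% higher and 41.3% lower. The median log2 change was 2.68 over the 32 members and −0.04 over all genes. Within batch JI alone the counts were 25 higher and 1 lower. In MEF 17 of 18 fibroblast markers had a mean of at least 1 FPKM, while 10 pluripotency markers summed to 0.802 to 0.902 FPKM, against 8447 to 20395 in WT ESC. Macrophage markers (8, such as Cd14 and Lyz2) summed to 589 to 592 FPKM in MEF, against 13.6 to 95.6 in WT ESC, and their part in the collagen levels was not tested. The 5 members not tested, Col10a1, Col19a1, Col23a1, Col25a1 and Col28a1, reached at most 1.47 FPKM.

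Col1a1 encodes the main chain of type I, the fibril of bone, skin and tendon. It had 278 and 303 FPKM in G2, 107 and 114 in G5, 213 and 208 in Nanog-null ESC and 0.364 and 0.319 in piPSC. WT iPSC had 63.0 FPKM in batch AC and 6.38 and 8.44 in JI, WT ESC 50.4 and 46.8 in AC and 6.06 and 6.35 in JI, and MEF 1248 and 1230.2. The groups of Nanog-null cells did not overlap with any WT group, and the batches of WT ESC and WT iPSC stood apart from each other.

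Its partner chain Col1a2 followed the same order. It had 256 and 256 FPKM in G2, 104 and 105 in G5, 187 and 187 in Nanog-null ESC, 0.414 and 0.464 in piPSC, 52.1, 9.11 and 14.3 in WT iPSC 1 to 3, 43.9, 40.4, 10.8 and 9.82 in WT ESC 1 to 4 and 901 and 882 in MEF. Col3a1, the fibril chain found with type I in soft tissue, had 239.9 and 246 FPKM in G2, 77.0 and 70.5 in G5, 129 and 132 in Nanog-null ESC, 0.185 and 0.169 in piPSC, 43.8, 6.88 and 7.71 in WT iPSC 1 to 3, 23.7, 21.4, 6.72 and 7.96 in WT ESC 1 to 4 and 446 and 448 in MEF. For both genes every Nanog-null sample lay above every WT pluripotent and piPSC sample and below MEF.

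Type V chains join type I fibrils and limit their width. Col5a1 had 69.0 and 67.8 FPKM in G2, 26.7 and 27.5 in G5, 51.8 and 51.7 in Nanog-null ESC, 0.166 and 0.187 in piPSC, 15.4, 2.46 and 2.62 in WT iPSC 1 to 3, 7.02, 6.37, 2.22 and 1.95 in WT ESC 1 to 4 and 252 and 249 in MEF. Col5a2 had 108 and 114 FPKM in G2, 50.4 and 48.0 in G5, 80.7 and 80.9 in Nanog-null ESC, 24.7 and 36.0 in piPSC, 21.2, 10.2 and 11.3 in WT iPSC 1 to 3, 11.6, 10.5, 8.93 and 8.24 in WT ESC 1 to 4 and 275 and 272 in MEF. Unlike the other chains above, Col5a2 stayed well above 10 FPKM in piPSC.
The third chain, Col5a3, had 2.77 and 2.46 FPKM in G2, 2.04 and 2.07 in G5 and 2.90 and 2.83 in Nanog-null ESC, against 75.3 and 71.2 in MEF, and at most 1.87 in the other samples.

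Of 2 chains best known from cartilage, Col2a1 stayed below 1 FPKM in Nanog-null cells and Col11a1 did not. Col2a1, the main fibril chain of cartilage, had 0.225 and 0.339 FPKM in G2, 0.407 and 0.423 in G5 and 0.622 and 0.663 in Nanog-null ESC, against 0.101 and 0.0962 in piPSC, 1.58, 0.741 and 0.751 in WT iPSC 1 to 3, 0.540, 0.410, 0.690 and 0.595 in WT ESC 1 to 4 and 39.5 and 40.2 in MEF. Col11a1, its minor fibril partner, which is also made by fibroblasts, had 9.73 and 10.4 FPKM in G2, 5.01 and 4.63 in G5, 11.6 and 11.6 in Nanog-null ESC, 0.123 and 0.1 in piPSC, 1.64, 0.818 and 0.705 in WT iPSC 1 to 3, 1.38, 1.2, 0.808 and 1.02 in WT ESC 1 to 4 and 43.9 and 41.8 in MEF. The summed level of 9 chondrocyte markers (Sox9, Acan and others) was 4.33 to 4.42 FPKM in G2 and 3.45 to 3.96 FPKM in G5, against 26.04 to 28.2 FPKM in MEF. Of the remaining fibrillar members, Col27a1 had 0.972 and 1.28 FPKM in G2 and 0.954 and 0.974 FPKM in G5, against 6.34 and 5.68 FPKM in MEF, and Col11a2 and Col24a1 stayed at or below 2.05 FPKM everywhere.

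Among collagens that bind to fibrils (FACIT), Col12a1 was the most abundant. It had 112 and 119 FPKM in G2, 50.1 and 49.8 in G5, 58.1 and 59.1 in Nanog-null ESC, 0.111 and 0.219 in piPSC, 13.5, 6.39 and 6.05 in WT iPSC 1 to 3, 6.24, 6.53, 5.24 and 4.2 in WT ESC 1 to 4 and 255 and 259.8 in MEF. Col14a1, a relative of Col12a1, had 2.60 and 2.45 FPKM in G2, 1.16 and 1.34 in G5 and 1.41 and 1.38 in Nanog-null ESC, against 11.5 and 9.71 in MEF, and at most 0.560 in the other samples. Col16a1 had 6.90 and 6.08 FPKM in G2, 3.88 and 3.76 in G5, 4.78 and 5.46 in Nanog-null ESC, 0.152 and 0.314 in piPSC, 1.68, 4.54 and 5.97 in WT iPSC 1 to 3, 1.76, 1.19, 7.08 and 3.23 in WT ESC 1 to 4 and 35.9 and 37.2 in MEF. For Col16a1, unlike type I, WT iPSC and WT ESC lay higher in batch JI than in AC.

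Type IX is a FACIT that decorates type II fibrils, and its 3 chains had 3 patterns. Col9a1 had 4.09 and 4.63 FPKM in MEF and at most 0.170 elsewhere. Col9a2 had 1.85 and 1.16 FPKM in G2, 2.1 and 1.81 in G5, 3.06 and 3.32 in Nanog-null ESC, 0.252 and 0.175 in piPSC, 30.1, 3.07 and 3.63 in WT iPSC 1 to 3, 28.8, 24.7, 6.60 and 4.47 in WT ESC 1 to 4 and 3.73 and 3.64 in MEF. Within batch AC every Nanog-null sample lay below every WT iPSC and WT ESC sample. Col9a3 had 1.62 and 1.39 FPKM in G2, 1.24 and 0.991 in G5, 1.43 and 0.852 in Nanog-null ESC, 0.403 and 0.120 in piPSC, 1.5, 5.49 and 4.04 in WT iPSC 1 to 3, 0.684, 0.427, 4.18 and 3.43 in WT ESC 1 to 4 and 6.56 and 5.14 in MEF, with the batches in the opposite order.

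Type VI forms beaded filaments next to cells from the chains Col6a1, Col6a2 and Col6a3. Col6a1 had 70.3 and 68.7 FPKM in G2, 30.7 and 28.8 in G5, 42.0 and 41.1 in Nanog-null ESC, 9.46 and 6.71 in piPSC, 11.5, 7.23 and 7.52 in WT iPSC 1 to 3, 9.43, 8.07, 7.11 and 7.49 in WT ESC 1 to 4 and 323 and 300.1 in MEF. Col6a2 had 36.3 and 38.7 FPKM in G2, 14.3 and 15.7 in G5, 25.1 and 25.5 in Nanog-null ESC, 1.36 and 1.31 in piPSC, 6.59, 3.01 and 3.87 in WT iPSC 1 to 3, 4.97, 4.30, 3.23 and 3.47 in WT ESC 1 to 4 and 219.6 and 219.9 in MEF. Col6a3 had 18.1 and 19 FPKM in G2, 9.96 and 12.4 in G5, 14 and 16.7 in Nanog-null ESC, 5.44 and 0.918 in piPSC, 5.90, 2.80 and 3.15 in WT iPSC 1 to 3, 4.62, 4.03, 3.64 and 2.56 in WT ESC 1 to 4 and 275 and 278 in MEF. For these 3 chains every Nanog-null sample lay above every WT iPSC, WT ESC and piPSC sample and below MEF. The ratio of Col6a3 to Col6a1 levels was 0.267 ± 0.0131 in G2 and 0.377 ± 0.0737 in G5, against 0.890 ± 0.0533 in MEF (SD, n = 2 each), so Col6a3 lay further below its MEF level than Col6a1 did.

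The ratio of Col3a1 to Col1a1 ran the other way. It was 0.837 ± 0.0382 in G2, 0.670 ± 0.0708 in G5 and 0.619 ± 0.0221 in Nanog-null ESC, against 0.361 ± 0.00473 in MEF (SD, n = 2 each). Col5a1 to Col5a2 was 0.617 ± 0.0331 in G2 and 0.551 ± 0.0315 in G5, against 0.915 ± 0.00160 in MEF. In piPSC the ratio of Col5a1 to Col5a2 was 0.00595 ± 0.00108 (SD, n = 2).

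Of the network-forming members, Col8a1, a chain of vessel and corneal matrix, had 27.4 and 29.7 FPKM in G2, 15.1 and 13.9 in G5, 26.3 and 24.5 in Nanog-null ESC, 0.281 and 0.439 in piPSC, 4.49, 3.26 and 3.38 in WT iPSC 1 to 3, 2.40, 2.17, 2.93 and 4.21 in WT ESC 1 to 4 and 55.8 and 57.1 in MEF. Col8a2 and Col10a1 reached at most 4.94 FPKM, in MEF. Col7a1, the anchoring fibril of skin, had 1.59 and 1.71 FPKM in G2 and 1.72 and 1.66 in G5, against 10.1 and 9.92 in MEF, and at most 1.79 in the other samples. Col18a1, a basement membrane member that holds the endostatin fragment, had 23.4 and 23.5 FPKM in G2, 23.2 and 24.3 in G5, 41.6 and 42.7 in Nanog-null ESC, 8.59 and 13.8 in piPSC, 54.8, 20.0 and 27 in WT iPSC 1 to 3, 22.3, 23.8, 19.7 and 18.6 in WT ESC 1 to 4 and 30.4 and 28.7 in MEF. Only Col18a1, Col5a2 and Col6a1 were above 5 FPKM in all 17 samples. For Col18a1 the clones lay within the range of WT ESC and WT iPSC, and piPSC lay below every other group.

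**Figure D2:**
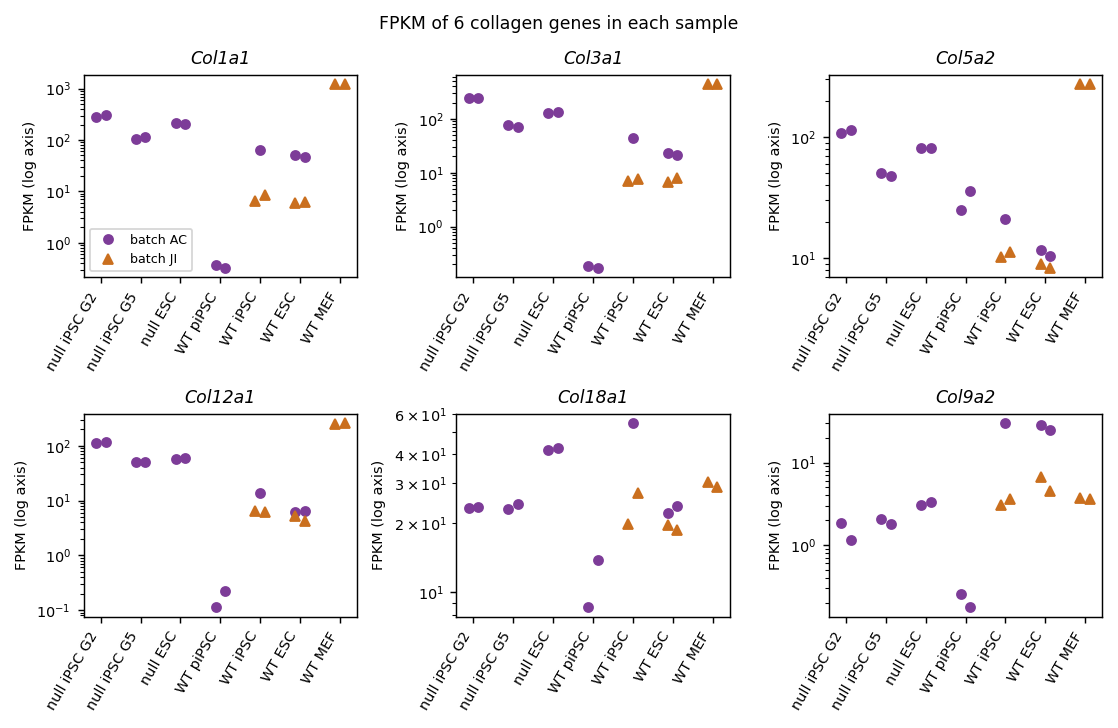
FPKM (log axis) of 6 collagen genes in each sample, with 1 point per sample, circles for batch AC and triangles for batch JI. Col1a1, Col3a1, Col5a2 and Col12a1 were between WT pluripotent cells and MEF in Nanog-null cells, Col18a1 lay between 18.6 and 54.8 FPKM outside piPSC, and Col9a2 was highest in AC samples of WT iPSC and WT ESC.

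As a percent of mean MEF FPKM, the 27 members with at least 1 FPKM in MEF had a median of 23.5% in G2 (SD of the medians of the 2 samples 0.253) and 11.8% in G5 (SD 0.687). Values ran from 0.281% (Col9a1) to 79.3% (Col18a1) in G2 and from 0.278% to 80.3% for the same genes in G5. Over the 12015 genes with at least 1 FPKM in MEF, the medians were 88.6% in G2 and 90.04% in G5. The median was 18.7% in Nanog-null ESC, 0.609% in piPSC, 5.41% in WT iPSC of batch AC, 3.92% in WT iPSC of JI, 4.03% in WT ESC of AC and 3.14% in WT ESC of JI. MEF and the clones lie in different batches, so these percentages are a description with no test.

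Below Col18a1, 4 members with at least 5 FPKM in MEF were above 40% in G2. These were Col3a1 with 54.3% ± 0.938 in G2 and 16.5% ± 1.03 in G5, and Col8a1 with 50.6% ± 2.84 in G2 and 25.7% ± 1.60 in G5. The other two were Col12a1 at 44.9% ± 1.90 in G2 and 19.4% ± 0.0658 in G5 and Col5a2 at 40.5% ± 1.66 in G2 and 18% ± 0.619 in G5 (SD, n = 2 each). Col1a1 was at 23.5% in G2 and 8.90% in G5, Col1a2 at 28.8% in G2 and 11.7% in G5, and Col6a1 at 22.3% in G2 and 9.54% in G5. At the low end, Col6a3 was at 6.69% in G2 and 4.03% in G5, Col5a3 at 3.57% in G2 and 2.81% in G5, Col15a1 at 1.02% in G2 and 0.831% in G5, and Col2a1 at 0.709% in G2 and 1.04% in G5. Thus chains of 1 type could lie far apart, as Col5a2 and Col5a3 did.

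Markers of fibroblasts lay at a like percent of MEF as the collagens in Nanog-null cells, and above them in the WT lines. Of 18 listed, among them Prrx1, Twist2, Pdgfrb and Fap, 17 had at least 1 FPKM in MEF, with a median of 22.4% of MEF in G2, 11.3% in G5, 20.2% in Nanog-null ESC and 1.32% in piPSC. In batch JI it was 13.7% in WT iPSC and 10.7% in WT ESC, where the collagens were at 3.92% and 3.14%. In batch AC it was 7.76% in WT iPSC and 4.99% in WT ESC, where the collagens were at 5.41% and 4.03%. The summed FPKM of the 18 was 493 to 520.4 in G2, 258 to 267 in G5, 383 to 409 in Nanog-null ESC, 96.7 to 138 in piPSC, 144 to 439 in WT iPSC and 94.9 to 397 in WT ESC, against 1970.4 to 1980 in MEF. Tcf21 was at 0 in G5 and at 0.0118 FPKM on average in G2. The list holds Lox and Postn, which also belong to the collagen cross-linking and fibril-binding lists below. The part of these markers in the collagen levels was not tested.

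**Figure D3:**
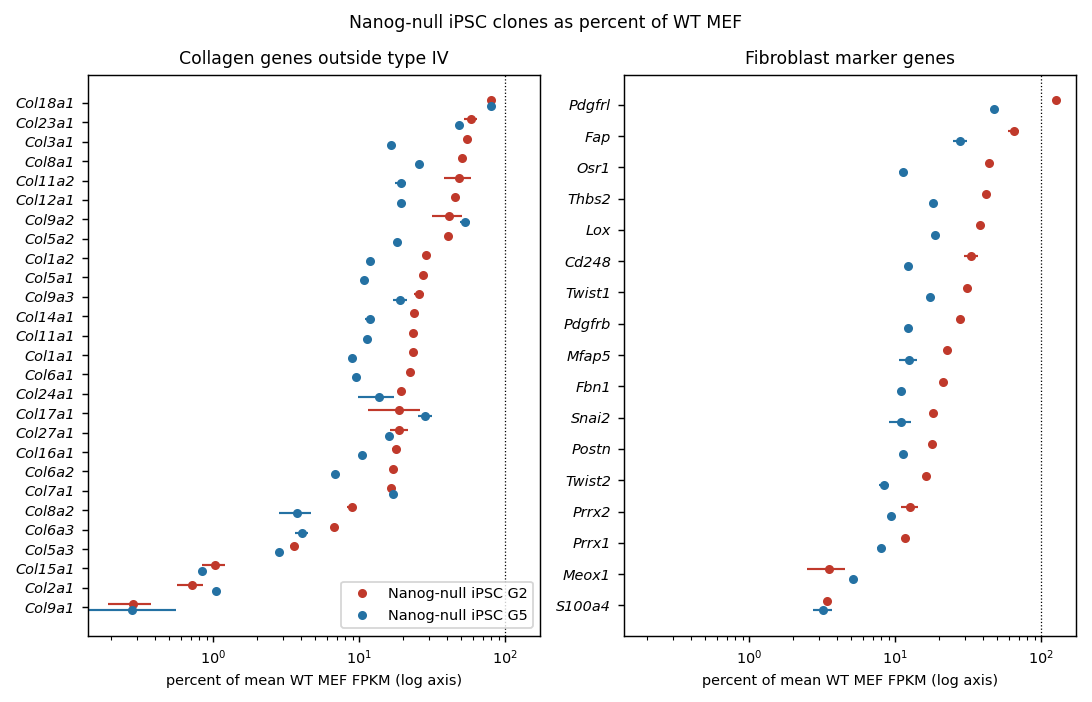
FPKM of each gene as a percent of its mean in the 2 WT MEF samples (log axis), for clones G2 and G5 (points, mean of 2 samples, with lines between the lower and the higher sample, cut at the edge where Col9a1 was 0 in 1 sample of G5). Left, the 27 collagen genes with at least 1 FPKM in MEF, where medians were 23.5% in G2 and 11.8% in G5. Right, 17 fibroblast markers, where medians were 22.4% in G2 and 11.3% in G5.

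In the limma test of the clones against MEF, which had a term for batch, 26 of 32 members tested were called lower and 1, Col20a1, higher (log2 change 0.56). With edgeR the Col20a1 change was −0.04 and that of Col13a1, one of the 26, was 1.10, and neither was called. The measured levels of Col13a1 ran against its lower call, with means of 1.72 FPKM in G2 and 1.59 in G5, above both MEF samples. Col20a1 was low in each group, with 1.23 and 1.2 FPKM in G2 and 1.51 and 1.52 in G5, against 0.669 and 0.586 in MEF. Over all genes 75.5% were called, 35.7% lower and 39.8% higher. The members had a median log2 change of −2.37, against 0.08 over all genes. Without the batch term, 24 were called lower and 1 higher. The size depended on that term, which rests on WT ESC and WT iPSC alone: Col1a1 changed by −5.63 ± 0.12 (SE) on the log2 scale with it (adjusted p = 3.8e-12, limma) and by −2.78 without it, and Col3a1 by −3.61 with it and −1.73 without it. Col18a1 (−0.95 with, −0.31 without) and Col9a2 (−3.19 with, −0.79 without) were called only with the batch term.

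Against WT iPSC, the clones were higher in 17 of 32 members and lower in 4. Over all genes 57.4% were called, 28.7% higher and 28.7% lower, and the median log2 change was 0.29 over the members and −0.02 over all genes. The split depended on the scaling, with 13 higher and 7 lower after quantile normalization and 18 higher and 8 lower with edgeR. Batch AC alone holds 1 WT iPSC sample, so no count is given for it. The labels do not say whether replicates came from separate cultures, so a p-value here speaks only of the spread among the samples deposited.

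Of 11 fibrillar members, 7 were called higher in the clones and 1 lower. Col1a1 was higher than in WT iPSC by 1.55 ± 0.10 (SE) on the log2 scale (adjusted p = 5.7e-08, limma), or 1.49 within batch AC, and Col1a2 by 1.70. Col3a1 was higher by 1.96 ± 0.18 (SE), Col5a1 by 1.79 and Col5a2 by 1.99. The minor chain Col11a1 was higher by 1.73. Col5a3 was higher by 0.40, but within batch AC its log2 change was 0.21 and was not called. Col2a1 was lower in the clones, with a log2 change of −0.65.

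Outside the fibrillar class, Col12a1 had the greatest rise in the clones, 2.66 ± 0.14 (SE) on the log2 scale (adjusted p = 9e-09, limma). Col8a1 rose by 2.29, Col6a1 by 2.03 and Col6a2 by 1.87. Col6a3 rose by 1.32 ± 0.35 (SE), but within batch AC its log2 change of 1.16 was not called. Col14a1, Col16a1, Col20a1, Col7a1 and Col8a2 were also called higher, with log2 changes of 0.26 to 1.18.

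The 4 members lower in the clones included Col9a2, with a log2 change of −3.23 ± 0.20 (SE) (adjusted p = 3.7e-08, limma) and −3.52 within batch AC. Col13a1 encodes a transmembrane collagen of cell contacts. It had 1.73 and 1.71 FPKM in G2, 1.54 and 1.65 in G5, 1.30 and 1.42 in Nanog-null ESC, 0.0862 and 0.0238 in piPSC, 5.02, 0.477 and 0.731 in WT iPSC 1 to 3, 3.27, 2.62, 0.468 and 0.327 in WT ESC 1 to 4 and 0.124 and 0.0969 in MEF. Its log2 change in the clones was −1.01, and WT iPSC 2 and 3 and WT ESC 3 and 4 lay below every Nanog-null sample. Col18a1 changed by −0.80 ± 0.22 (SE) (adjusted p = 0.00749, limma), a call that was lost without WT iPSC 1 and with a fold of at least 2 required. With no batch term the calls for Col9a2 (−1.63, adjusted p = 0.0724, limma), Col18a1 and Col13a1 were lost, as were those for Col16a1 and Col8a2 among the higher members, and the Col13a1 change turned to 0.09.

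In Nanog-null ESC, 17 of 32 members were higher than in WT ESC and 2 lower. Over all genes 53.8% were called, 27.4% higher and 26.4% lower, and the median log2 change was 0.51 over the members and −0.01 over all genes. Within batch AC alone, 2 samples against 2, the counts were 19 higher and 4 lower, with no share of all genes given for that fit. Col1a1 rose by 2.06 ± 0.10 (SE) on the log2 scale (adjusted p = 9.2e-09, limma), Col3a1 by 2.29, Col5a1 by 2.60, Col12a1 by 2.89 and Col8a1 by 2.84. Col9a2 changed by −2.87 and Col13a1 by −0.82. With no batch term the calls for Col9a2, Col13a1, Col16a1 and Col8a2 were lost, and Col13a1 changed sign.
Col18a1 was higher in Nanog-null ESC, by 0.66 ± 0.23 (SE) (adjusted p = 0.0274, limma), a call lost when either Nanog-null ESC sample, WT ESC 1 or WT ESC 2 was left out.

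The difference between the Nanog-null effect in iPSC and in ESC was tested as an interaction, which was added after the data had been seen. It was called for 5 of 32 members, all with a smaller rise or a fall in iPSC, against 11% of all genes, with 5.24% in that direction and 5.79% in the other. The median difference was −0.25 over the members and −0.01 over all genes. The greatest was Col18a1 with −1.46 ± 0.28 (SE) on the log2 scale (adjusted p = 0.00587, limma), and Col1a1 had −0.51.

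**Figure D4:**
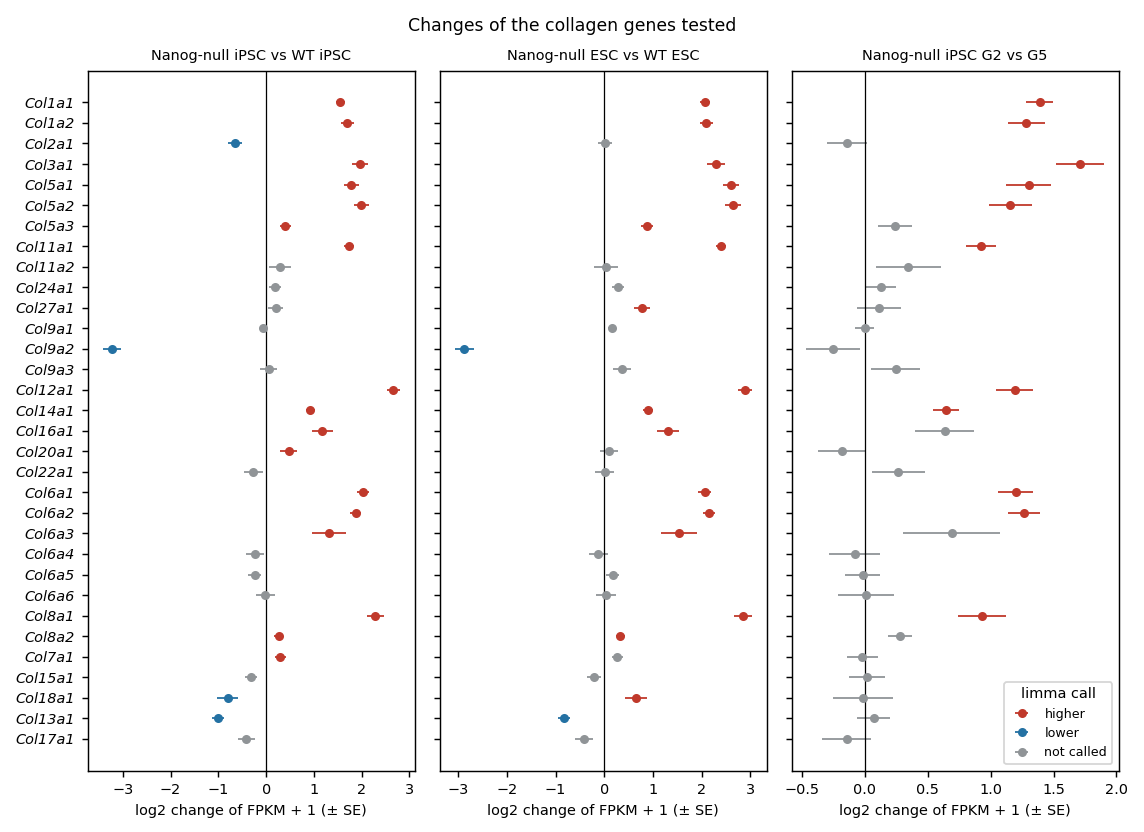
Log2 change of FPKM + 1 with its standard error (horizontal axis) for each of the 32 collagen genes tested (rows), in Nanog-null iPSC against WT iPSC, Nanog-null ESC against WT ESC and clone G2 against clone G5. Red points were called higher (17, 17 and 11 genes), blue points lower, and grey points were not called.

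Markers of more than 1 other cell type were also called higher in Nanog-null cells, in the fit with a batch term. In the clones against WT iPSC, 14 of 17 fibroblast markers tested and 9 of 10 primitive endoderm markers were called higher, and 8 of 10 pluripotency markers lower. Over all genes 28.7% were called higher and 28.7% lower in that comparison. In Nanog-null ESC against WT ESC, 16 of 17 fibroblast markers and 9 of 10 primitive endoderm markers were higher, where 27.4% of all genes were called higher and 26.4% lower. Measured fibroblast marker levels did not all follow these calls. Their median percent of MEF was 22.4% in G2 and 11.3% in G5, against 7.76% in WT iPSC of AC and 13.7% in JI. In Nanog-null ESC it was 20.2%, against 4.99% in WT ESC of AC and 10.7% in JI. Epithelial markers were higher in 6 of 7 tested in the clones against WT iPSC, and in Nanog-null ESC against WT ESC 5 of 7 were higher and 1, Cdh1, lower. Epcam averaged 38.1 FPKM in G2 and 48.2 in G5, against 15.1 in WT iPSC of AC and 235 to 244 in JI. Cldn6 averaged 12.3 in G2 and 10.9 in G5, against 2.49 in AC and 98.3 to 98.6 in JI. Cldn6 (20.2 FPKM) and Krt18 (195 FPKM) in Nanog-null ESC likewise lay above WT ESC of AC only, with 63.5 to 88.0 and 308 to 472 in JI. The summed FPKM of 8 epithelial markers was 1062 to 1124 in G2, 1823 to 2019 in G5 and 646 to 671 in Nanog-null ESC, against 110.5 to 847 in WT iPSC and 268 to 1072 in WT ESC. The keratin Krt8 had 362.9 FPKM on average in G2, 762.1 in G5 and 221.3 in Nanog-null ESC, against 2.30 to 106 in WT iPSC and 6.46 to 200.3 in WT ESC. The summed FPKM of the 10 primitive endoderm markers, such as Gata4, Gata6 and Sox17, was 69.0 to 78.4 in G2, 58.6 to 61.2 in G5 and 90.4 to 92.5 in Nanog-null ESC, against 3.70 to 25.1 in WT iPSC and 3.93 to 20.98 in WT ESC. No feeder sample was analysed here, and the part of feeder cells or of other cell types in the collagen levels was not tested.

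Against Nanog-null ESC, the clones pooled had 3 of 32 members called lower, Col11a1 (−0.65), Col18a1 (−0.81) and Col9a2 (−0.63). Over all genes 10.8% were called, 4.62% lower and 6.19% higher. Over the members the median log2 change was −0.07, against −0.00 over all genes. The Col18a1 call was lost when any one sample of these groups was left out. Within batch AC alone, where those groups lie, 2 members were higher and 11 lower, with no share of all genes given for that fit. For Col1a1, Col1a2, Col3a1, Col5a1, Col5a2, Col6a1 and Col12a1 the mean level in Nanog-null ESC lay between those of G5 and G2.

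The clones differed from each other. G2 was higher than G5 in 11 of 32 members, against 5.36% of all genes called, 3.14% higher and 2.22% lower, with a median log2 change of 0.26 over the members and −0.02 over all genes. Col3a1 differed most, by 1.71 ± 0.19 (SE) on the log2 scale (adjusted p = 0.00023, limma), followed by Col1a1 with 1.39, Col5a1 with 1.30, Col1a2 with 1.29 and Col6a2 with 1.27. Col6a1, Col12a1, Col5a2, Col8a1, Col11a1 and Col14a1 made up the rest, with log2 changes of 0.65 to 1.2. With batch AC alone in the fit, 14 were called higher, with no share of all genes given for that fit. Without the batch term, which adds the batch difference of the WT lines to the residual spread, only Col6a1 and Col6a2 were called. Col8a1 was not called when any single clone sample was left out.

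On the linear scale the ratio of G2 to G5 had a median of 1.97 over 21 collagen genes with at least 1 FPKM in either clone, and 17 were above 1. It ran from 0.769 (Col9a2) to 3.29 (Col3a1). No such ratio was taken over all genes, whose median log2 change between the clones was −0.02. Over 16 fibroblast markers the median ratio was 1.94, and 16 of 16 were above 1, with 11 of 17 called higher by limma. Over the 10 primitive endoderm markers the median log2 change between the clones was 0.11. Col18a1 and Col7a1 had log2 changes of −0.02 ± 0.24 (SE) and −0.02 ± 0.12 (SE) between the clones, and neither was called.

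Partially reprogrammed cells held little of most fibroblast collagens and more of a few others. Against MEF, 25 of 32 members were lower and 4 higher in piPSC, where 76.8% of all genes were called, 37.3% lower and 39.5% higher. The median log2 change was −3.63 over the members and 0.05 over all genes. Without the batch term 23 were lower and 4 higher. Col1a1 changed by −12.70 ± 0.14 (SE) with the batch term (adjusted p = 6.2e-15, limma) and by −9.85 without it, and Col3a1 by −10.45 with it and −8.57 without it. Col1a1, Col1a2 and Col3a1 made up 0.780% and 0.838% of collagen fragments in piPSC, against 53.8% and 54.0% in MEF.

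Against WT iPSC, 18 of 32 members were lower in piPSC and 6 higher, where 64.7% of all genes were called, 34.2% lower and 30.5% higher. Members had a median log2 change of −0.82 and all genes −0.06. Batch AC alone holds 1 WT iPSC sample, so its counts are left out. Col1a1 changed by −5.51, Col1a2 by −5.14, Col3a1 by −4.88 and Col9a2 by −4.39. Col5a2 was higher by 0.71 ± 0.18 (SE) (adjusted p = 0.0034, limma), while its partner Col5a1 was lower, with a log2 change of −3.44. The Col5a2 call was lost with a fold of at least 2 required and with only piPSC and WT iPSC in the fit, where its log2 change was 0.48 (adjusted p = 0.15, limma).

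The later-described type VI chains Col6a4, Col6a5 and Col6a6 were high in piPSC. Col6a4 had 24.4 and 14 FPKM in piPSC, against 0.679 and 0.189 in MEF, and at most 0.249 in the other samples. Col6a6 had 12.9 and 5.72 FPKM in piPSC and at most 0.128 in the other samples. Col6a5 had 1.12 and 2.09 FPKM in piPSC and at most 0.434 in the other samples. No other sample overlapped with piPSC for these 3 genes, though the 2 piPSC samples differed from each other, and not in the same way: Col6a4 and Col6a6 were higher in piPSC 1, Col6a5 in piPSC 2.
The log2 changes against WT iPSC were 3.98 ± 0.21 (SE) for Col6a4, 3.21 ± 0.23 (SE) for Col6a6 and 0.92 ± 0.15 (SE) for Col6a5. These genes reached 1 FPKM in piPSC samples alone, so they passed the filter only through the group where they were high. Their p-values are left out for that reason, and they are among the 6 members counted as higher than in WT iPSC. The 3 genes neighbour one another on chromosome 9 in the RefSeq annotation of GRCm38.p6, with 1 other annotated gene, the pseudogene Gm24631, in the span. The type VI sum was 42.7 ± 16.98 FPKM in piPSC (SD, n = 2), against 17.6 ± 6.23 in WT iPSC (n = 3) and 809 ± 14.4 in MEF (n = 2).

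Col22a1, a FACIT of tissue junctions, had 5.03 and 5.44 FPKM in piPSC, 1.35, 0.188 and 0.886 in WT iPSC 1 to 3 and 0.208 and 0.102 in MEF. It was higher in piPSC than in WT iPSC by 1.64 on the log2 scale and than in MEF by 2.12. Col15a1, a basement membrane relative of Col18a1, had 2.85 and 3.07 FPKM in piPSC, 0.338, 0.412 and 0.312 in WT iPSC 1 to 3 and 6.45 and 8.54 in MEF. It was higher in piPSC than in WT iPSC (1.57) and, by limma, lower than in MEF (−1.05), a call that was lost with edgeR, where the log2 change was −0.02.
Endothelial markers did not move one way in piPSC. The summed FPKM of 6 (Cdh5, Tek, Tie1, Emcn, Vwf and Esam) was 84.7 to 86.4 in piPSC, against 5.64 to 16.7 in WT iPSC and 2.94 to 3.78 in MEF. In piPSC Esam gave most of it, with 56.0 FPKM on average. Against MEF, Esam, Tek and Tie1 were called higher, Cdh5 (−1.08) and Vwf (−0.81) lower, where 39.5% of all genes were called higher and 37.3% lower. Emcn was listed at 0 in both piPSC samples. Of the fibroblast markers, Tcf21 and Osr1 were listed at 0 in both piPSC samples, and S100a4 alone gave 76.0 and 118.5 FPKM of the summed 96.7 and 138. The part of either marker list in the piPSC collagens was not tested.

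**Figure D5:**
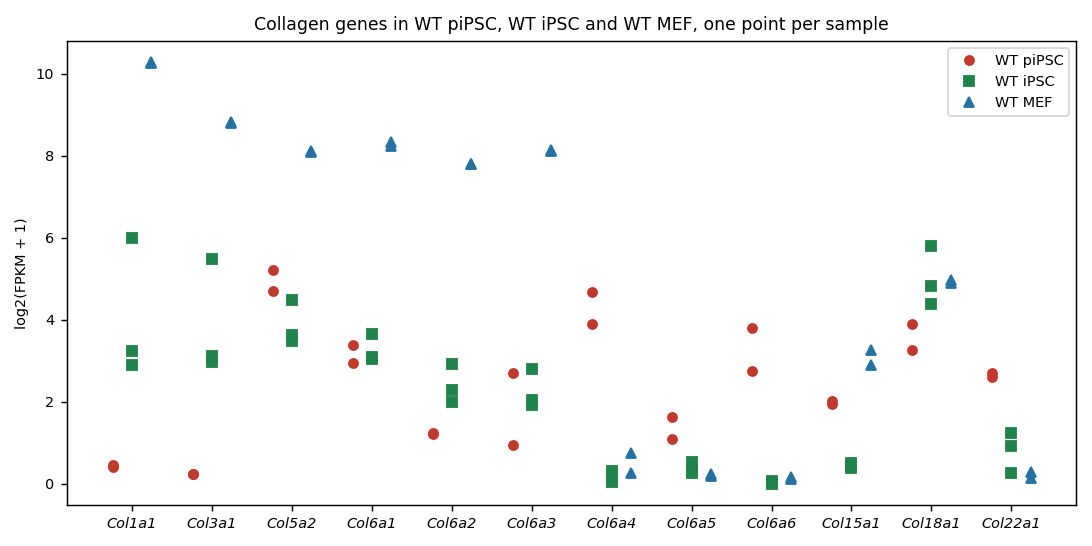
Log2(FPKM + 1) of 12 collagen genes in WT piPSC (circles), WT iPSC (squares) and WT MEF (triangles), 1 point per sample. Type I and III chains are near 0 in piPSC, Col5a2 and Col6a1 are not, and Col6a4, Col6a5, Col6a6 and Col22a1 are highest in piPSC.

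Few members differed between WT iPSC and WT ESC by the test. Of 32 members, 1 was called, Col12a1, higher in WT iPSC by 0.60 ± 0.11 (SE) on the log2 scale (adjusted p = 0.0353, limma), where 1.02% of all genes were called, 0.641% higher and 0.379% lower. Members had a median log2 change of 0.17, and all genes 0.01. The batches did not give the same answer. Within AC, 1 WT iPSC sample against 2 WT ESC samples, the log2 changes were 1.22 for Col18a1, 1.09 for Col5a1 and 0.93 for Col3a1. Within JI, 2 against 2, the same genes had log2 changes of 0.27, 0.20 and −0.01 and no member was called by limma, where 945 of all genes had an unadjusted p under 0.05. With edgeR on both batches 10 members were called higher, a count given without a share of all genes. The Col12a1 call was lost when WT ESC 1, WT ESC 2, WT iPSC 1 or WT iPSC 2 was left out.

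Some members differed widely by batch, and with it strain. In WT ESC the ratio of AC to JI levels had a median of 1.40 over 17 collagen genes with at least 1 FPKM in either, ran from 0.146 to 7.84 and was above 1 for 14. A ratio over all genes was not taken. Col1a1 (50.4 and 46.8 FPKM in AC, 6.06 and 6.35 in JI) was at the high end and Col9a3 (0.684 and 0.427 FPKM in AC, 4.18 and 3.43 in JI) at the low end. Over 15 fibroblast markers the median ratio was 0.344 and 6 were above 1, among them Fbn1 (5.65) and Pdgfrb (3.95). In WT ESC these markers were thus split, and as a set they did not move like the collagens.

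The genes that make, trim, cross-link and bind collagen followed in part. Against WT iPSC, 5 of 6 cross-linking genes, 9 of 11 genes for proteins that bind fibrils, 8 of 10 genes for proteases, their inhibitors and collagen uptake, and 4 of 6 collagen receptors were called higher in the clones. Of those 10, Timp1, Timp2 and Timp3 encode inhibitors of metalloproteinases, and all 3 were among the higher genes in the fit with a batch term. For Timp1 the measured levels were above WT iPSC of batch AC only. Timp1 averaged 69.4 FPKM in G2 and 55.7 in G5, against 26.96 in WT iPSC of AC and 456 and 498 in JI. Of the 18 folding and modification genes tested, 10 were higher and 2 lower, and of the 6 export genes 2 were higher and 2 lower. Over all genes 28.7% were called higher and 28.7% lower. Propeptide cleavage genes were split, 3 higher and 3 lower. Lox, the lysyl oxidase that starts cross-links, had 227 and 241 FPKM in G2 and 113 and 118 in G5, against 10.1 to 47.7 in WT iPSC, with a log2 change of 1.99 ± 0.15 (SE) (adjusted p = 2.4e-07, limma). Tgm2, a transglutaminase that also cross-links matrix proteins, rose by 4.27, the collagenase Mmp13 by 2.37, the gelatinase Mmp2 by 2.21 and Dcn, which encodes the fibril-binding proteoglycan decorin, by 2.63.

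The chaperone gene Serpinh1 had a smaller log2 change than Col1a1. Its levels were 159 and 167 FPKM in G2 and 112 and 115 in G5, against 116 to 124 in WT iPSC and 788 and 811 in MEF. Its log2 change in the clones pooled was 0.52 ± 0.17 (SE) against WT iPSC in the fit with a batch term (adjusted p = 0.0222, limma). The measured levels were above WT iPSC in G2 only, and both G5 samples lay below every WT iPSC sample. Plod2, the lysyl hydroxylase of collagen ends, was lower in the clones, with a log2 change of −0.92.
Between the clones, 8 of 11 fibril-binding genes, 5 of 10 genes for proteases, their inhibitors and collagen uptake, 3 of 6 cross-linking genes and 3 of 18 folding genes were higher in G2, where 3.14% of all genes were called higher. The inhibitors Timp1, Timp2 and Timp3 were not among the 5. Log2 changes among these genes included Dpt (dermatopontin) at 1.71, Ogn (osteoglycin) at 1.60 and Mmp2 at 1.24.

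Against MEF, fibril-binding genes were lower in piPSC in 11 of 11 cases and lower in the clones in 9 of 11, with 1 higher, where 37.3% of all genes were called lower in piPSC and 35.7% in the clones. Of 18 folding genes, 10 were lower and 5 higher in piPSC, and 11 lower and 3 higher in the clones. Over all genes 39.5% were called higher in piPSC and 39.8% in the clones. P4ha1 was among the higher folding genes, with log2 changes of 1.47 in piPSC and 1.26 in the clones in the fit with a batch term. Against WT iPSC, 9 of 18 folding genes were higher in piPSC and 4 lower, where 30.5% of all genes were called higher and 34.2% lower. Fkbp10, which encodes a prolyl isomerase of the endoplasmic reticulum, had 174 and 184 FPKM in piPSC, against 8.42 to 12.2 in WT iPSC and 118 and 124 in MEF. Its log2 change against WT iPSC was 4.34 ± 0.20 (SE) (adjusted p = 1.2e-09, limma). Leprel4 changed by 4.72 and Pcolce, an enhancer of propeptide cleavage, by 3.98 in the same test, while Lox changed by −5.11 and Serpinh1 by −2.54. Lox and Postn belong both to these lists and to the fibroblast markers, so the lists are not independent.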

How the data were processed

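RNA-seq of 17 samples was deposited as 1 table of genes per sample. Per the file headers, the authors gave each gene an FPKM value and an estimated count of fragments. Tools, per the submitters' processing notes, were Cuffdiff 2.1.1, Bowtie2 2.0.5, TopHat2 2.0.7 and CASAVA. Builds mm10 and NCBIM37 are listed with no role for either. Between 97.5% and 98.8% of the estimated counts per sample were whole within 0.01, and 19 genes with a failed status were left out, none of them a member. Depth was 17682401 to 43501951 fragments in batch AC and 7795960 to 30077204 in JI.

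Log2(FPKM + 1) of 15298 genes that reached 1 FPKM in 2 or more samples was tested with limma 3.58.1 (R 4.3.3), with group and batch as terms, all 17 samples, a mean-dependent prior and Benjamini-Hochberg adjustment at 0.05. Fold changes on this scale understate the change of low genes. edgeR 4.0.16 on estimated counts rounded to whole numbers was an alternative, and the scripts were tested on simulated data. Other steps used Python 3.11.15, pandas 2.3.3 and scipy 1.17.1. Other alternatives were the pseudocount, the filter, scaling, the batch term, each batch alone, a replicate block and each sample left out. Shares of all genes called are from the reported fit of all 17 samples, and none is given for the alternatives. Members of at least 5 FPKM in a group are given by sample and the others by range or count. Of the machinery genes, at most 3 called genes per list and comparison are named, those with the greatest change at 5 FPKM or more, besides Serpinh1, P4ha1, Plod2 and Lox. Of 148 list entries, 147 matched by symbol. The members and lists were chosen with earlier results of these data known. Promoters are from RefSeq, GRCm38.p6.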

Additional observations from a re-analysis of the deposited data

Results flagged for a closer look

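For 5 collagen genes the Nanog-null effect in iPSC (clones against WT iPSC) differed from that in ESC (Nanog-null ESC against WT ESC), by a limma test of the difference itself that was chosen after the data had been seen. The difference was −1.46 ± 0.28 (SE) on the log2 scale for Col18a1 (adjusted p = 0.00587, limma), −0.81 ± 0.21 (SE) for Col5a1 (adjusted p = 0.0265, limma), −0.66 ± 0.18 (SE) for Col2a1 (adjusted p = 0.0355, limma), −0.66 ± 0.14 (SE) for Col11a1 (adjusted p = 0.0087, limma) and −0.51 ± 0.12 (SE) for Col1a1 (adjusted p = 0.0217, limma). Each value is the effect in iPSC minus that in ESC.

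Col18a1 was lower in the clones than in WT iPSC and higher in Nanog-null ESC than in WT ESC, so its 2 effects had opposite signs. Without WT iPSC 1, which had the highest Col18a1 level of all samples, its difference was −1.08 (adjusted p = 0.00995, limma). That setting left Col1a1 at −0.45 with an adjusted p of 0.0581 (limma), and the other 4 were called. With no batch term none of the 5 was called by limma, and their adjusted p ranged from 0.185 to 0.999. With quantile normalization or edgeR the 5 genes were called, with log2 differences of −0.53 to −2.19, the last for Col2a1 with edgeR. Both settings also called Col5a3, and edgeR called further members, among them Col5a2, Col9a2 and Col27a1. The set of genes called thus depended on the method.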

How the results depend on the processing

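Of 154 alternative values for the counts of collagen genes called and the medians of percent of MEF, 114 stayed close to the reported value and 40 moved. Counts and medians of this kind have no direction that could reverse. Single genes could change sign between settings, as Col13a1 and Col20a1 did above. The WT iPSC against WT ESC count, 1 as reported, was 0 with a pseudocount of 0.1, with no filter, with no batch term, with a fold of at least 2, with only these groups and in batch JI alone, and 10 with edgeR. Leaving out single samples gave 0 to 7, with 7 without WT ESC 3 or WT ESC 4. The clones against Nanog-null ESC count, 3 as reported, was 8 with edgeR, 0 with no batch term (where 1281 of all genes had an unadjusted p under 0.05) or a fold of at least 2, 16 with only these groups, 13 in batch AC alone and 1 to 2 with single samples left out. G2 against G5 fell to 2 with no batch term. A mean of at least 5 FPKM left 16 members to test, and gave 16 for the clones and for piPSC against MEF, 15 for MEF against WT ESC and 14 for piPSC against WT iPSC. The cause of these shifts was not tested, apart from the fewer genes tested.

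Other counts with single samples left out were 24 to 26 (clones against MEF), 29 (piPSC against MEF), 22 to 26 (MEF against WT ESC), 18 to 20 (clones against WT iPSC), 10 (G2 against G5), 18 to 19 (Nanog-null against WT ESC) and 23 to 26 (piPSC against WT iPSC). The median percent of MEF was 27.7 in G2 and 13.7 in G5 from fragments scaled to the library total, 25.1 in G2 and 12.5 in G5 with TMM scaling, and 11.04 in G5 for genes of at least 10 FPKM in MEF. Leaving out single samples gave 22.4 to 23.6 in G2 and 11.6 to 12.6 in G5. Replicate numbers did not pair the samples, with correlations of deviations from −0.056 to 0.114, and a replicate block gave 5 for the clones against Nanog-null ESC and 8 for WT iPSC against WT ESC. The median log2 change of all genes was 0.08 for the clones against MEF, and −0.04 with quantile normalization. For piPSC against WT iPSC it was −0.06, and −0.17 with edgeR.

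Batch and strain cannot be told apart, MEF lies in 1 batch and the Nanog-null cells and piPSC in the other, and the batch term rests on 7 samples. Groups held 2 to 4 samples, which left 9 residual degrees of freedom.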
